A study of Homo sapiens with 48 samples.

Results

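Calcineurin, the NFAT transcription factors it acts on, its RCAN regulators and the immunophilins that carry the calcineurin-blocking drugs were followed here through 10 genes. They are NFATC1, NFATC2, NFATC3, PPP3CA, PPP3CB, PPP3R1, RCAN1, RCAN3, FKBP1A and PPIA, chosen by name out of 24462 gene symbols in the count files. All 10 are in the files, each on 1 row, and all 10 passed the filter on low counts that left 15642 genes for testing. THP-1 cells, a human monocytic leukemia line, gave RNA for sequencing 12 h after a chemical, the solvent DMSO or neither was added. The libraries were made with a Lexogen kit that reads the 3′ ends of transcripts, and there are 48 of them in 16 groups of 3. Each of 12 chemicals was given at 1 level, its CV90, by common use the dose at which 90% of cells stay viable, and the sources used here do not give the concentrations.

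The first groups described are cyclosporine and tacrolimus, which both block calcineurin. The others are the glucocorticoids dexamethasone and prednisolone, the bacterial lipopolysaccharide LPS, mercuric chloride, the JAK inhibitor tofacitinib, aciclovir, ribavirin, genistein, benzoic acid and the detergent sodium lauryl sulfate. The controls are 6 vehicle and 6 untreated libraries, each in a series 2 and a series 1 of 3 libraries. Titles give 0.4, 0.5 and 0.6% DMSO for vehicle series 2 and 0.1, 0.2 and 0.3% for vehicle series 1, while the protocol gives 0.1%. The labels do not tie either series to a treatment. A gene is therefore said to have risen, fallen or been called only where edgeR's quasi-likelihood test, adjusted over all genes, gave a value under 0.05 against both vehicle series in the same direction. All cells are 1 leukemia line, at passages 11 to 15, and the labels do not say whether a group's 3 libraries are separate cultures. The p-values then cover the spread among those 48 libraries alone, whose source may be technical.

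Calcineurin is a phosphatase that is switched on by calcium and calmodulin. It takes phosphate off NFAT proteins, which then enter the nucleus and act on genes together with other factors; kinases such as GSK3 and DYRK reverse this. Cyclosporine binds cyclophilin A, the product of PPIA, and tacrolimus binds FKBP12, the product of FKBP1A, and each drug-protein complex blocks calcineurin. The pathway is best known from T cells, where it drives cytokine genes, and it also works in myeloid cells. RCAN1 both binds calcineurin and, from one of its promoters, is itself an NFAT target.

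RCAN1 transcripts begin at several places, and counts per gene from 3′ ends do not separate them. The promoters are shown because one group of starts is the NFAT-responsive one. RefSeq (GRCh38.p14) gives 6 promoter windows for RCAN1, each from 250 bases before to 50 bases after a start. They were searched for the NFAT core GGAAA on both strands, so a match on the other strand reads TTTCC; capitals mark the matches. The windows at the 3 upstream starts hold 0 matches, window 4 holds 5, and windows 5 and 6 hold 1 each. Among all 35116 RefSeq promoter windows of this length, 61.2% hold at least 1 match, 9.94% at least 3 and 0.740% at least 5. The windows below are window 2, upstream, on the minus strand at chr21:34614397-34614696 and window 4 on the minus strand at chr21:34526773-34527072.
RCAN1 window 2: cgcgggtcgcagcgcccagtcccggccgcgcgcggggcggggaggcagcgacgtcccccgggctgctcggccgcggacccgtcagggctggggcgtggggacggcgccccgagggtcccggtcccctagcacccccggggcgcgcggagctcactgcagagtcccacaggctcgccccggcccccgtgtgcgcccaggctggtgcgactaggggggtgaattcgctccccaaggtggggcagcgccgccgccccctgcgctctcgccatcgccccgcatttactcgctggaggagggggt
RCAN1 window 4: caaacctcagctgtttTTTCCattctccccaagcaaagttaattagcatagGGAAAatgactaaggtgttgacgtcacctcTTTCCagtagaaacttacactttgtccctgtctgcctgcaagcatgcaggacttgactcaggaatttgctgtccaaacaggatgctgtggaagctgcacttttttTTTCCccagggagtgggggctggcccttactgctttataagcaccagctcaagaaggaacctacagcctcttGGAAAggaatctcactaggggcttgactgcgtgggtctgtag

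NFATC2, the member called in the most treatments, has 2 windows, with 3 matches and 0 matches. The first, on the minus strand at chr20:51562790-51563089, is given next.
NFATC2 window 1: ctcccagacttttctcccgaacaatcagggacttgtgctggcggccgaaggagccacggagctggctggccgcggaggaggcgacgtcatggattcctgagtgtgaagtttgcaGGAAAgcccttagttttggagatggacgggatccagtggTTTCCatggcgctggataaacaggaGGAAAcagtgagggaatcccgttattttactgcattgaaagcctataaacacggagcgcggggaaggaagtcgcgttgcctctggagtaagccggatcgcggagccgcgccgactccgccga
The other members with a window in the table are NFATC1 (2 windows with 1 match each), NFATC3 (1 window with 0), PPP3R1, FKBP1A and PPIA (1 window with 1 match each) and RCAN3 (3 windows with 1 match each). PPP3CA and PPP3CB have no entry in it. A match of letters is a description of the window and says nothing of binding in these cells.

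Total counts per library were 5.95 to 11.5 M (mega-counts). The mercuric chloride libraries stood apart. They were the shallowest, at 6.41 ± 0.510 M (SD, n = 3), the 10 most counted genes held 12.0% of their counts, beside 5.58 to 6.02% elsewhere, and they gave the highest group sums of fibroblast, erythroid and epithelial marker genes. The largest was the fibroblast sum of 30.7 CPM (counts per mega-count), and COL1A1 alone reached 31.6 CPM in 1 library. All 13 monocyte and myeloid markers had counts, at summed levels of 3659 to 5491 CPM, with the lowest group mean in mercuric chloride (3969 CPM). ELANE and CTSG had the highest medians, 2133 and 1394 CPM, while CD14 (2.42 CPM), MPO (3.39 CPM) and ITGAM (9.54 CPM) were low. The 8 T cell markers summed to 0.506 to 5.07 CPM, with CD3E at 0 in all 48 libraries. The 5 B cell markers summed to 10.8 to 25.8 CPM, with PAX5 at a median of 13.4 CPM. Dexamethasone libraries had the widest spread, with a median SD of 0.314 on the log2 scale against 0.129 to 0.231 in the other groups. Replicate 3 of dexamethasone stood apart from its group: the chi-square of its counts per degree of freedom was 36.1 and 43.1 against replicates 1 and 2, which gave 3.51 between themselves. Replicate 3 of benzoic acid did so too (29.4 and 30.2, against 2.97). Without each of these libraries, members called were 1 for dexamethasone and 0 for benzoic acid. In bulk RNA, fewer cells of a kind and less RNA per cell cannot be told apart.

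The control series differed from each other with and without solvent. Control series 2 against control series 1, with vehicle and untreated libraries of each pooled in 1 contrast, called 30.1% of all genes and 6 of the 10 members. The vehicle libraries alone gave 19.1% of genes and 5 members, and the untreated libraries alone gave 14.2% and 4. The axis of this difference, computed without the members from the untreated libraries, puts vehicle series 1 at 0 and vehicle series 2 at 1. Cyclosporine lay at 1.04 ± 0.0212 and tacrolimus at 0.0278 ± 0.0733 (SD, n = 3 each). Each inhibitor's libraries therefore resembled a different control series, and for the members that differ between the series, drug and series cannot be told apart. Mercuric chloride lay at 1.13 ± 0.037 (SD, n = 3), on the side of vehicle series 2, so the same limit applies to it. The means of the remaining treatments lay between -0.0454 (aciclovir) and 0.315 (benzoic acid).

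**Figure D1:**
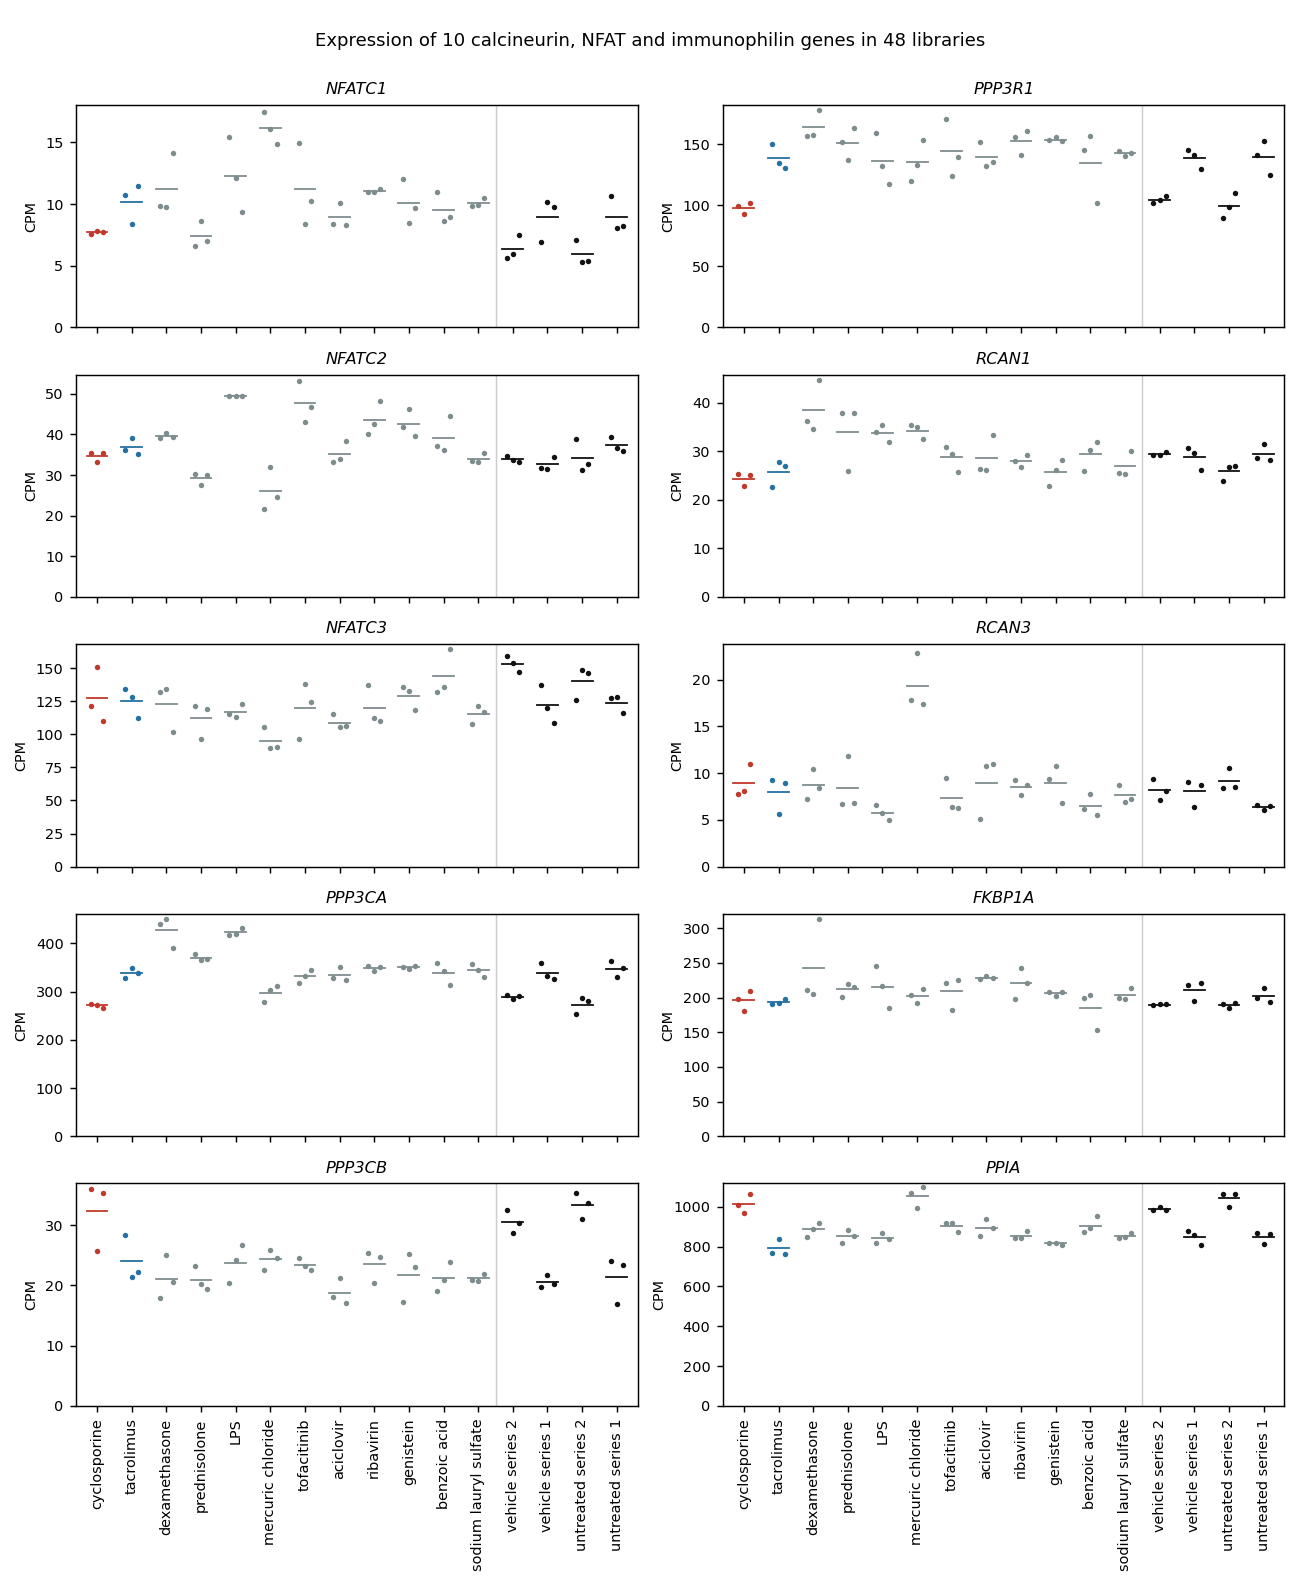
Expression in CPM (vertical axes, from 0) of the 10 genes in 48 libraries, by group, with cyclosporine in red, tacrolimus in blue, the other treatments in grey and the 4 control groups in black at the right of the grey line; points are libraries and bars are means of 3. RCAN3 is highest with mercuric chloride, NFATC2 with LPS, and PPP3CA and PPP3R1 are low in cyclosporine and both series 2 control groups.

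None of the 10 genes was called with either calcineurin inhibitor against both vehicle series. Cyclosporine called 0 of 10, where 0.831% of all genes were called, and tacrolimus called 0 of 10, where 0.0575% were. By the same rule without adjustment, 0 members reached a p under 0.05 in either drug. DESeq2 and limma-voom, under the same rule, also called 0 in each. The rule can give no call where the changes against the vehicle series differ in sign. That was so for NFATC1, NFATC3 and FKBP1A with cyclosporine, and for NFATC3, PPP3CA, PPP3CB, PPP3R1 and FKBP1A with tacrolimus. Changes with cyclosporine ran from -0.30 (PPP3R1) to 0.36 (PPP3CB) on the log2 scale and those with tacrolimus from -0.21 (PPIA) to 0.44 (NFATC1), as means over both vehicle series.

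RCAN1, the calcineurin regulator that is itself an NFAT target, had its lowest group mean of all 16 groups in cyclosporine. The next lowest means were those of genistein (25.7 ± 2.63 CPM) and tacrolimus (25.8 ± 2.76 CPM). RCAN1 stood at 25.2, 22.7 and 25.1 CPM with cyclosporine and at 22.6, 27.7 and 26.9 CPM with tacrolimus, against 29.2, 29.2 and 29.8 CPM in vehicle series 2 and 30.6, 29.6 and 26.0 CPM in vehicle series 1. All 3 cyclosporine libraries lay below all 6 vehicle libraries, which held for 5.59% of all genes in that direction; the tacrolimus libraries overlapped them. The log2 fold change with cyclosporine was -0.28 (95% interval -0.54 to -0.02) against vehicle series 2 and -0.24 (-0.50 to 0.02) against vehicle series 1, and its adjusted p by the edgeR rule over both series was 1. With tacrolimus it was -0.20 (-0.45 to 0.06) against vehicle series 2 and -0.16 (-0.42 to 0.09) against vehicle series 1. Neither change was called, and intervals of this width do not show that RCAN1 stayed the same. RCAN1 was not called between the control series (-0.07, interval -0.25 to 0.11). The untreated series 2 libraries, at 24.0, 26.8 and 27.0 CPM, overlapped the range of cyclosporine, and those of untreated series 1 held 28.7, 31.4 and 28.1 CPM.

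RCAN3, a relative of RCAN1 that also binds calcineurin, was among the least counted members, with 45 to 127 counts per library. It was at 7.73, 8.03 and 11.0 CPM with cyclosporine and at 9.22, 5.57 and 8.98 CPM with tacrolimus. Its 6 vehicle libraries ran from 6.40 to 9.39 CPM, and all of these ranges overlapped.

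The genes of the drugs' own binding proteins differed in pattern. FKBP1A, which encodes the tacrolimus receptor FKBP12, was at 198, 181 and 209 CPM with cyclosporine and at 191, 193 and 198 CPM with tacrolimus, against 189, 191 and 190.1 CPM in vehicle series 2 and 218, 195 and 221 CPM in vehicle series 1. Tacrolimus libraries lay just above all 3 of vehicle series 2 and overlapped vehicle series 1, and the cyclosporine range overlapped both. The log2 fold change of FKBP1A with tacrolimus was 0.03 (interval -0.19 to 0.25) against vehicle series 2 and -0.12 (-0.34 to 0.09) against vehicle series 1. PPIA, which encodes the cyclosporine receptor cyclophilin A, was at 1008, 971 and 1067 CPM with cyclosporine and at 769.9, 841 and 765 CPM with tacrolimus, against 984, 1001 and 985 CPM in vehicle series 2 and 877, 857 and 809.6 CPM in vehicle series 1.

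Cyclosporine libraries thus held PPIA at the level of vehicle series 2 (log2 fold change 0.04, interval -0.08 to 0.16) and above vehicle series 1 (0.26, interval 0.14 to 0.38). Tacrolimus libraries had the lowest PPIA mean of all groups, below vehicle series 2 by a log2 of -0.32 (interval -0.44 to -0.20), while against vehicle series 1 the value was -0.10 (interval -0.22 to 0.02). Both genes have near-identical copies, so their counts are uncertain to that extent. Copies of PPIA in the files took 0.353 to 1.39% of the summed counts of PPIA and its copies. For FKBP1A the share was 2.04 to 5.54%, taken by FKBP1AP1 and FKBP1A-SDCBP2 together. FKBP1A-SDCBP2 is a noncoding gene that overlaps FKBP1A rather than a separate copy.

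The calcineurin subunit genes lay near vehicle series 2 with cyclosporine and near vehicle series 1 with tacrolimus. PPP3CA, the alpha catalytic subunit, was at 274, 273 and 267 CPM with cyclosporine and at 328, 348 and 339 CPM with tacrolimus, against 292, 285 and 291 CPM in vehicle series 2 and 359, 332 and 326 CPM in vehicle series 1. The cyclosporine libraries were below all 6 vehicle libraries, which held for 5.59% of all genes in that direction. The tacrolimus libraries lay within the range of vehicle series 1. PPP3R1, the regulatory B subunit that binds calcium, was at 99.8, 92.9 and 102 CPM with cyclosporine and at 151, 135 and 131 CPM with tacrolimus, against 102, 104 and 108 CPM in vehicle series 2 and 145, 142 and 130.1 CPM in vehicle series 1. Cyclosporine overlapped vehicle series 2, and tacrolimus overlapped vehicle series 1.

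PPP3CB, the beta catalytic subunit, went the other way. It was at 35.9, 25.7 and 35.2 CPM with cyclosporine and at 28.3, 21.4 and 22.2 CPM with tacrolimus, against 32.5, 28.7 and 30.4 CPM in vehicle series 2 and 19.7, 21.7 and 20.2 CPM in vehicle series 1. Replicate 2 of cyclosporine was the lowest of its group and overlapped tacrolimus. Whether counting used strand is not given in the sources used here, so reads of the antisense gene PPP3CB-AS1 may be mixed in; it had a median of 7.58 CPM over all libraries. PPP3CB-AS1 was at 4.15, 9.73 and 9.49 CPM with cyclosporine, with replicate 2 the highest, and at 7.10, 6.44 and 11.0 CPM with tacrolimus.

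The 3 NFAT genes gave no call with either drug. NFATC1 was at 7.59, 7.80 and 7.72 CPM with cyclosporine and at 10.7, 8.42 and 11.5 CPM with tacrolimus, against 5.61, 5.92 and 7.51 CPM in vehicle series 2 and 6.93, 10.1 and 9.78 CPM in vehicle series 1. With 45 to 156 counts per library it is, like RCAN3, a member with wide intervals. NFATC2 was at 35.5, 33.1 and 35.5 CPM with cyclosporine and at 36.3, 39.1 and 35.1 CPM with tacrolimus, against 31.5 to 34.6 CPM over the 6 vehicle libraries. The 3 tacrolimus libraries were above all 6 vehicle libraries, which held for 3.54% of all genes in that direction, but the change of 0.15 ± 0.09 (log2, SE) was not called. NFATC3 ran from 110.3 to 151 CPM with cyclosporine and from 112 to 135 CPM with tacrolimus, both within the 108 to 159 CPM of the vehicle libraries.

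**Figure D2:**
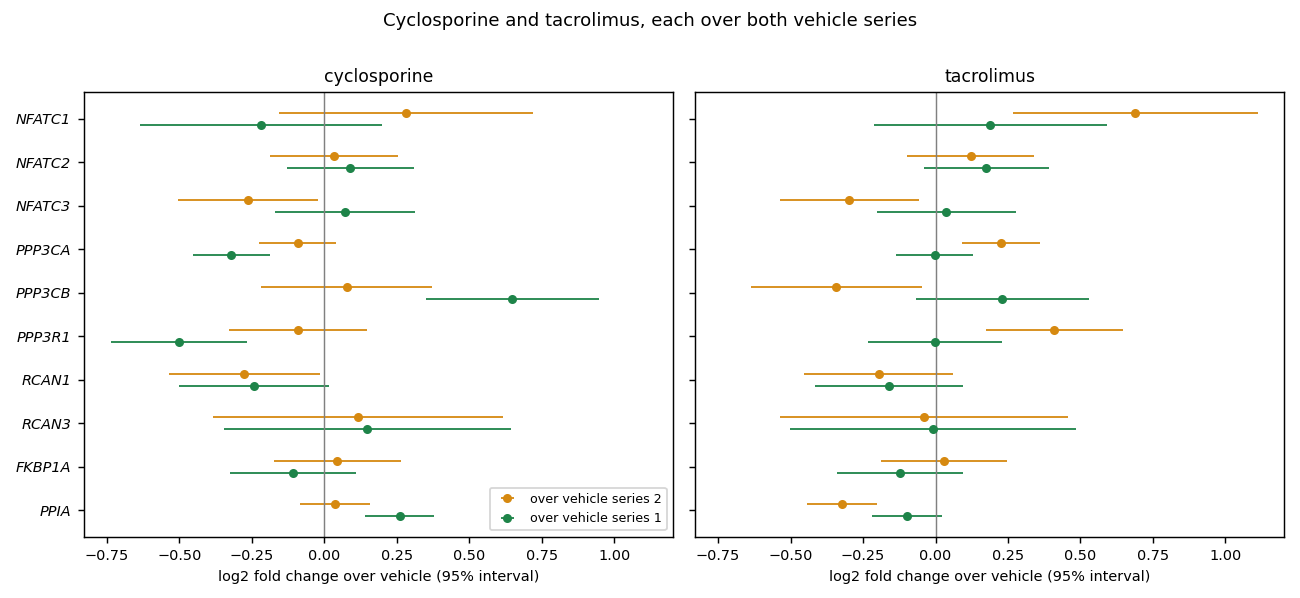
Log2 fold changes (horizontal axes) of the 10 genes with cyclosporine (left) and tacrolimus (right) over vehicle series 2 (orange) and vehicle series 1 (green), with 95% intervals from the edgeR fit. For PPP3CA, PPP3CB, PPP3R1 and PPIA the cyclosporine interval excludes 0 against vehicle series 1 and includes it against vehicle series 2.

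The count of members called depended on which vehicle series was used. Cyclosporine called 0 members against vehicle series 2 alone, where 1.39% of genes were called, and 4 against vehicle series 1 alone, where 24.1% were. The 4 were PPP3CA at -0.32, PPP3CB at 0.65, PPP3R1 at -0.50 and PPIA at 0.26 (log2). Tacrolimus called 4 members against vehicle series 2 alone, where 18.1% of genes were called, and 0 against vehicle series 1 alone, where 0.237% were. Those 4 were NFATC1 at 0.69, PPP3CA at 0.23, PPP3R1 at 0.41 and PPIA at -0.32.

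Set against each other, each at its own CV90, cyclosporine and tacrolimus differed in 4 of the 10 members, where 20.2% of all genes were called. PPP3CA was lower with cyclosporine than with tacrolimus by a log2 of -0.32 (95% interval -0.45 to -0.19, adjusted p = 0.000366 by edgeR) and PPP3R1 by -0.50 (-0.74 to -0.27, adjusted p = 0.00148). PPIA was higher with cyclosporine by 0.36 (0.24 to 0.48, adjusted p = 1.41e-05) and PPP3CB by 0.42 (0.12 to 0.72, adjusted p = 0.0369). In each of PPP3CA, PPP3R1 and PPIA all 3 cyclosporine libraries lay on one side of all 3 tacrolimus libraries. The same held for NFATC1, which was not called. The share of all genes apart in this way was not computed. The PPP3CB call was lost with limma-voom (adjusted p = 0.0543), with no filter (0.0621) and without replicate 1 or 3 of cyclosporine or replicate 2 or 3 of tacrolimus (0.150 to 0.186).

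The other 6 members gave no call between the drugs. The difference was -0.08 (interval -0.34 to 0.18) for RCAN1, 0.02 (-0.20 to 0.23) for FKBP1A, -0.09 (-0.31 to 0.13) for NFATC2 and 0.03 (-0.21 to 0.28) for NFATC3. The intervals were widest for the low-count genes, from -0.83 to 0.01 for NFATC1 and from -0.34 to 0.66 for RCAN3. These intervals leave room for differences of either sign or of some size in each of the 6 genes.

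The same 4 members also differed between the control series, and in the same direction. Control series 2 against control series 1 gave -0.29 (interval -0.38 to -0.19) for PPP3CA, -0.45 (-0.62 to -0.28) for PPP3R1, 0.60 (0.40 to 0.81) for PPP3CB and 0.26 (0.18 to 0.35) for PPIA. NFATC1 at -0.55 (-0.85 to -0.25) and NFATC3 at 0.26 (0.09 to 0.43) were called as well. PPP3CA, PPP3R1, PPP3CB and PPIA were also called in the untreated libraries alone, where NFATC1 (adjusted p = 0.051) and NFATC3 (0.36) were not; in the vehicle libraries alone NFATC3 was called (0.0419) and NFATC1 was not (0.0897), all by edgeR. The adjusted p-values of the 6 pooled calls ran from 3.59e-06 (PPIA) to 0.0166 (NFATC3) by edgeR. RCAN1, RCAN3, NFATC2 and FKBP1A were not called. The labels give no run, day or passage for single libraries, so what separates the control series was not tested.

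**Figure D3:**
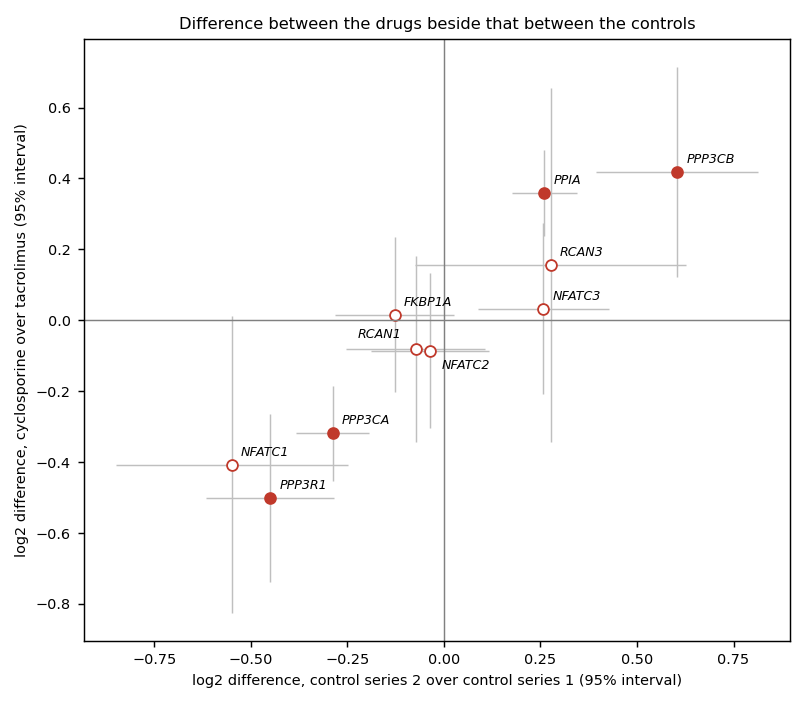
Log2 difference of each of the 10 genes between control series 2 and control series 1 (horizontal axis) and between cyclosporine and tacrolimus (vertical axis), with 95% intervals in grey; filled points are genes called between the drugs. PPP3CB and PPIA lie at the upper right and PPP3CA and PPP3R1 at the lower left.

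No member was called for the solvent itself. Vehicle against untreated libraries, over both series, called 0 of the 10 members and 0 genes in all by edgeR (0% of genes), with 463 genes at an unadjusted p under 0.05; DESeq2 and limma-voom also called 0. The members' differences lay between -0.10 (NFATC2) and 0.09 (RCAN3) on the log2 scale.

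Among the other treatments, dexamethasone, LPS, mercuric chloride and tofacitinib called members. Dexamethasone raised 2 of 10, where 8.57% of all genes were called and 4.99% were higher. PPP3CA was at 439, 451 and 389 CPM with dexamethasone, against 292, 285 and 291 CPM in vehicle series 2 and 359, 332 and 326 CPM in vehicle series 1. All 3 dexamethasone libraries were above all 6 vehicle libraries, which held for 8.41% of all genes in that direction, and the log2 fold change was 0.45 ± 0.06 (SE, adjusted p = 0.000360 by edgeR).

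RCAN1 was at 36.3, 34.6 and 44.6 CPM with dexamethasone, above the 26.0 to 30.6 CPM of the vehicle libraries, with replicate 3 the highest of all 48. Its log2 fold change was 0.41 ± 0.11 (SE, adjusted p = 0.0423 by edgeR), close to the threshold. The call was lost without dexamethasone replicate 3 (0.28, adjusted p = 0.393), without any single vehicle library (adjusted p = 0.0560 to 0.133), with no filter (0.0857) and in a fit of only the libraries compared (0.175). Replicate 3 was also the library in which FKBP1A reached 313 CPM, beside 211 and 206 CPM in the other dexamethasone libraries. PPP3R1 was at 157, 157 and 178 CPM with dexamethasone, above all vehicle libraries, with a log2 of 0.45 and an adjusted p of 0.242 by edgeR. NFATC2, at 39.2, 40.4 and 39.4 CPM with dexamethasone, was also above all vehicle libraries and was not called (adjusted p = 0.229 by edgeR).

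Prednisolone, the other glucocorticoid, called 0 of 10 where 1.96% of genes were called, with 0 at an unadjusted p under 0.05, and 0 also by DESeq2 and limma-voom. PPP3CA was at 379, 366 and 367 CPM with prednisolone, above all 6 vehicle libraries (6.43% of all genes), with a log2 of 0.24 and an adjusted p of 0.699. RCAN1 was at 37.9, 26.0 and 37.9 CPM, so that 2 of 3 libraries lay above the vehicle range and replicate 2 just below its lowest library. NFATC2, at 30.3, 27.7 and 29.9 CPM with prednisolone, was below all 6 vehicle libraries (6.36% of all genes) and was not called. Whether dexamethasone and prednisolone differ in these genes was not tested.

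LPS raised 2 members, where 7.20% of all genes were called and 4.56% were higher. NFATC2 was at 49.5, 49.5 and 49.5 CPM with LPS, against 34.6, 33.7 and 33.2 CPM in vehicle series 2 and 31.8, 31.5 and 34.5 CPM in vehicle series 1, a log2 fold change of 0.57 ± 0.09 (SE, adjusted p = 0.000195 by edgeR). Libraries of both genes lay above all 6 vehicle libraries, which held for 9.60% of all genes. PPP3CA was at 417, 421 and 433 CPM with LPS, with a log2 of 0.44 ± 0.06 (SE, adjusted p = 0.000413). Both calls remained when any 1 library was left out. RCAN1 was at 33.9, 35.4 and 31.9 CPM with LPS, above all vehicle libraries, with a log2 of 0.22 and an adjusted p of 0.631.

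Tofacitinib raised NFATC2, the 1 member it called, where 2.32% of all genes were called and 1.09% were higher. NFATC2 was at 53.1, 43.0 and 46.7 CPM with tofacitinib, all above the 31.5 to 34.6 CPM of the vehicle libraries (6.67% of all genes), with a log2 of 0.52 ± 0.09 (SE, adjusted p = 0.00470 by edgeR). The call was lost without tofacitinib replicate 1, the highest of the 3 (0.43, adjusted p = 0.0776), and with the untreated libraries in place of vehicle (0.41, adjusted p = 0.0672).

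Mercuric chloride called 4 members, a share close to the 41.9% of all genes it called (21.8% higher and 20.1% lower). RCAN3 was at 17.8, 22.9 and 17.3 CPM with mercuric chloride, against 9.39, 7.10 and 8.10 CPM in vehicle series 2 and 9.08, 6.40 and 8.68 CPM in vehicle series 1, a log2 fold change of 1.25 ± 0.21 (SE, adjusted p = 4.4e-05 by edgeR). Its mean was 2.12 times that of the next group, the widest such gap of any member. Reads of the antisense gene RCAN3AS were few, at 1.91 CPM at most.

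NFATC1 was at 17.4, 16.1 and 14.9 CPM with mercuric chloride, against 5.61, 5.92 and 7.51 CPM in vehicle series 2 and 6.93, 10.1 and 9.78 CPM in vehicle series 1, a log2 of 1.10 ± 0.18 (SE, adjusted p = 0.000573 by edgeR). NFATC2 fell, to 21.6, 32.0 and 24.6 CPM with mercuric chloride against 31.5 to 34.6 CPM in vehicle libraries (log2 -0.36, adjusted p = 0.0189), and replicate 2 overlapped them. NFATC3 fell too, to 106, 89.6 and 90.8 CPM with mercuric chloride against 108 to 159 CPM (log2 -0.52, adjusted p = 0.0179). Libraries of NFATC1 and RCAN3 lay above all vehicle libraries, as for 26.2% of all genes, and those of NFATC3 below, as for 24.4%. RCAN1, at 35.4, 34.9 and 32.4 CPM with mercuric chloride, was also above all vehicle libraries and was not called (adjusted p = 0.196 by edgeR).

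The NFATC1 and RCAN3 calls held under every alternative tried, and the NFATC2 and NFATC3 calls did not. With RLE scaling the adjusted p was 0.0902 for NFATC2 and 0.0801 for NFATC3, and with DESeq2 it was 0.105 and 0.0807. NFATC2 also lost its call without mercuric chloride replicate 1 (0.178) or 3 (0.0650) or vehicle series 1 replicate 3 (0.0669), and NFATC3 without mercuric chloride replicate 2 (0.0685) or 3 (0.0625) or vehicle series 1 replicate 1 (0.120). The share of counts on a few genes and the marker sums given above moved with the mercuric chloride libraries, and their part in these 4 changes was not tested.

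The remaining treatments called 0 of 10 members each. The background shares were 0.237% for aciclovir, 0.147% for ribavirin, 0.237% for genistein, 0.0320% for benzoic acid and 0.307% for sodium lauryl sulfate. At an unadjusted p under 0.05 there was 1 member each for ribavirin and genistein and 0 for the other 3. DESeq2 and limma-voom called 0 in each of the 5 treatments. NFATC2 was above all 6 vehicle libraries in ribavirin (40.0, 42.5 and 48.2 CPM), genistein (41.7, 46.1 and 39.5 CPM) and benzoic acid (37.0, 36.1 and 44.5 CPM), as were 4.89%, 5.31% and 1.62% of all genes in these treatments, with adjusted p-values of 0.197, 0.374 and 1. NFATC1 in ribavirin, PPP3R1 in genistein and FKBP1A in aciclovir (5.67% of all genes) also lay above all 6 vehicle libraries and were not called.

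**Figure D4:**
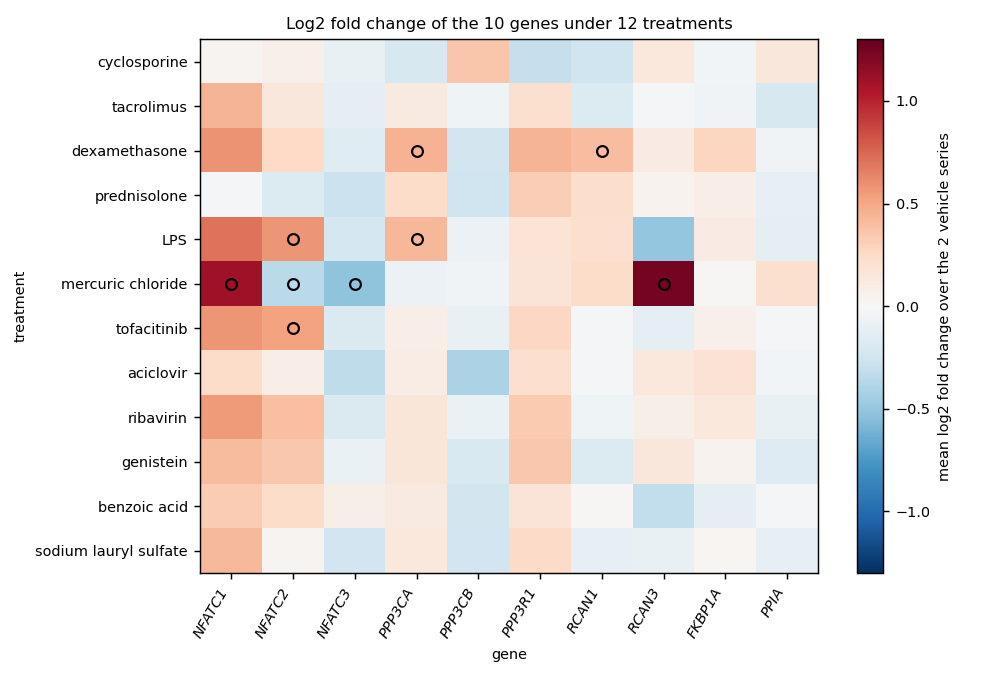
Mean log2 fold change over both vehicle series (colour, red higher and blue lower in the treatment) for 12 treatments (rows) and 10 genes (columns); black rings mark calls by edgeR against both series. The rows of cyclosporine and tacrolimus hold 0 rings, and 9 rings lie in dexamethasone, LPS, mercuric chloride and tofacitinib.

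Over the 16 groups, 8 of the 10 members kept their group means within 2-fold. The ratio of the highest to the lowest group mean was 1.31 for FKBP1A, 1.33 for PPIA, 1.57 for PPP3CA, 1.58 for RCAN1, 1.61 for NFATC3, 1.67 for PPP3R1, 1.78 for PPP3CB and 1.90 for NFATC2. It was 2.72 for NFATC1 and 3.37 for RCAN3. Among the 15 steps between neighbours in each member's order of group means, libraries of neighbouring groups were fully apart at 3 steps for PPP3CA, at 0 for NFATC3 and at 1 for each other member. Such ratios and steps were not computed over all genes, so whether these values are unusual was not tested.

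For PPP3CA dexamethasone (427 ± 32.9 CPM) and LPS (424 ± 8.27 CPM) overlapped at the top, prednisolone (370.4 ± 7.37 CPM) stood apart below them, and the lowest 4 groups were mercuric chloride, vehicle series 2, untreated series 2 and cyclosporine (271 ± 4.002 CPM). For PPIA the top 4 were mercuric chloride (1055 ± 53.9 CPM), untreated series 2, cyclosporine and vehicle series 2 (989.8 ± 9.82 CPM), which overlapped each other and were apart from the next, benzoic acid. For PPP3CB untreated series 2, cyclosporine and vehicle series 2 led; mercuric chloride, next in order, was apart from vehicle series 2 but overlapped replicate 2 of cyclosporine. For RCAN1 dexamethasone, mercuric chloride, prednisolone and LPS led, and LPS (33.8 ± 1.76 CPM) was apart from vehicle series 2 (29.4 ± 0.333 CPM). For PPP3R1 vehicle series 2, untreated series 2 and cyclosporine (98.2 ± 4.74 CPM) came last, and benzoic acid, the group above them, overlapped vehicle series 2.

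Other genes of the pathway were read from lists of its parts, chosen like the members with earlier results of these data known. Of 74 genes tested over all lists, cyclosporine called 1, a share of 1.35% where 0.831% of all genes were called, and tacrolimus called 0, where 0.0575% were. Dexamethasone called 16, a share of 21.6% where 8.57% of all genes were called, and 10 of the 16 were also called without its replicate 3, by a fit added after seeing the data that called 5.18% of genes. The gene called with cyclosporine was FKBP2, which encodes FKBP13, an immunophilin of the endoplasmic reticulum that binds tacrolimus. FKBP2 was at 73.2, 69.2 and 78.6 CPM with cyclosporine and at 28.3, 28.0 and 23.9 CPM with tacrolimus, against 45.6, 45.0 and 42.6 CPM in vehicle series 2 and 24.3, 24.4 and 30.6 CPM in vehicle series 1. Every cyclosporine library was above every vehicle library, which held for 5.77% of all genes in that direction. The log2 fold change was 1.10 ± 0.11 (SE, adjusted p = 0.000564 by edgeR), 0.73 against vehicle series 2 and 1.48 against vehicle series 1. Control series 2 itself was higher than control series 1 by 0.70. FKBP2 was also at 77.0, 74.3 and 75.1 CPM with mercuric chloride, within the range of the cyclosporine libraries.

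Of 15 other FK506-binding protein genes 13 were tested. Their median log2 was -0.12 with cyclosporine and -0.04 with tacrolimus, beside 0.00 and 0.01 over all genes. FKBP5, which encodes a co-chaperone of the glucocorticoid receptor and a known glucocorticoid target, rose with dexamethasone (1269, 1316 and 759.6 CPM) and prednisolone (754, 752 and 771 CPM), against 66.8 to 82.4 CPM in vehicle libraries. The log2 fold changes were 3.89 ± 0.10 and 3.34 ± 0.09 (SE, adjusted p = 6.30e-28 and 4.26e-25 by edgeR), and the change with dexamethasone was 4.10 without its replicate 3. With LPS FKBP5 and FKBP15 rose. With mercuric chloride 4 of the 13 genes rose and 3 fell, where 41.9% of all genes were called, led by FKBP4, another receptor co-chaperone, at 218, 248 and 250.2 CPM against 31.9 to 47.6 CPM.

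**Figure D5:**
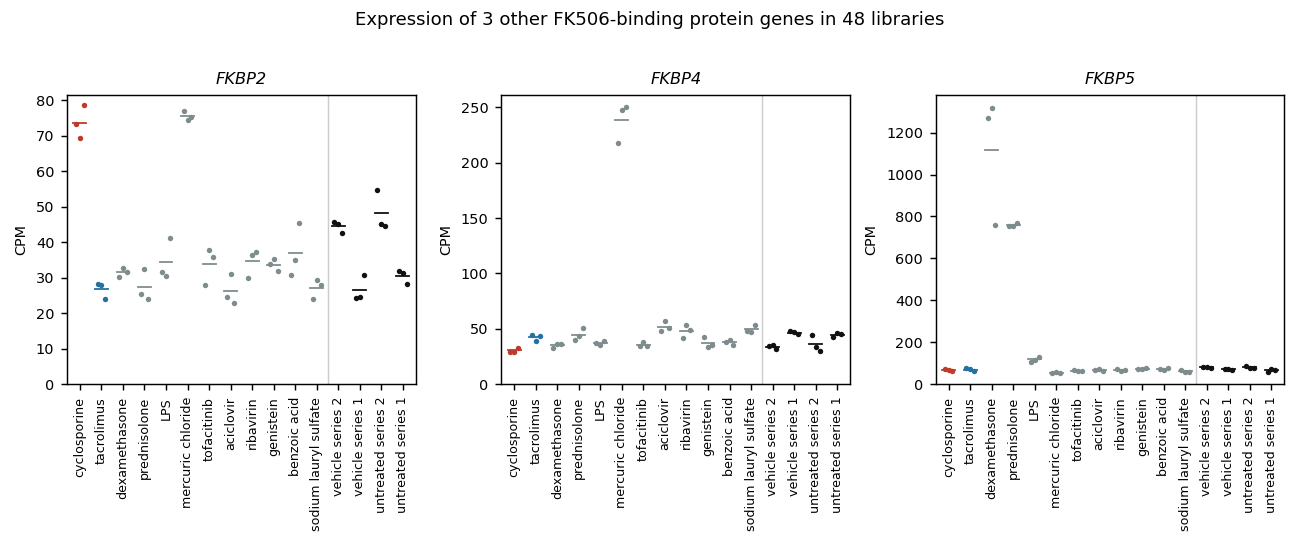
Expression in CPM (vertical axes, from 0) of FKBP2, FKBP4 and FKBP5 in 48 libraries by group, with cyclosporine in red, tacrolimus in blue, the other treatments in grey and controls in black; points are libraries and bars are means of 3. FKBP2 is high with cyclosporine and mercuric chloride, FKBP4 with mercuric chloride, and FKBP5 with dexamethasone and prednisolone.

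Among 15 other cyclophilin genes, all tested, 0 were called with either inhibitor, and median changes were 0.04 with cyclosporine and -0.12 with tacrolimus. Control series 2 against control series 1 called 7 of the 15 higher and 2 lower, where 30.1% of all genes were called. Cyclosporine against tacrolimus called 6 higher and 2 lower, where 20.2% of all genes were called. For the genes that differ between the series, drug and series cannot be told apart. Mercuric chloride raised 4 and lowered 6 of the 15, where it called 21.8% of all genes higher and 20.1% lower; PPID, which encodes cyclophilin 40, rose by 1.24 and PPIF, the mitochondrial cyclophilin D gene, by 1.04 (log2). PPIB, the cyclophilin B gene of the endoplasmic reticulum, fell with dexamethasone (-0.76) and tofacitinib (-0.84); without dexamethasone replicate 3 it was not called (-0.58, adjusted p = 0.281 by edgeR). PPIH fell with tofacitinib (-0.31).

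Of 11 other calcineurin subunits, NFAT proteins and regulators 8 were tested, and 0 were called with either inhibitor. PPP3CC, the third catalytic subunit gene, rose with dexamethasone by 0.63 (21.7, 24.2 and 27.3 CPM) and with mercuric chloride by 0.83 (31.0, 28.5 and 24.6 CPM), against 13.5 to 17.5 CPM in vehicle libraries. Without dexamethasone replicate 3 the PPP3CC call was lost (0.54, adjusted p = 0.205 by edgeR). NFAT5, the tonicity-responsive NFAT that does not need calcineurin, rose with mercuric chloride by 1.53 (66.3, 66.5 and 61.1 CPM), against 21.2 to 25.0 CPM. AKAP1, a mitochondrial anchoring protein gene, fell with mercuric chloride by 1.95 and with LPS by 0.48 on the log2 scale.

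Calcium entry and calmodulin genes (13 of 13 tested) gave 0 calls with either inhibitor. STIM1, the calcium sensor that opens store-operated channels, rose with dexamethasone (153, 169 and 222 CPM), prednisolone (142, 158 and 144 CPM) and tofacitinib, against 72.3 to 103 CPM in vehicle libraries, by 1.07, 0.77 and 0.61 (log2), and fell with mercuric chloride (-0.69). ORAI2, a channel gene, fell with dexamethasone (-0.53). Both dexamethasone calls were also made without its replicate 3, at 0.90 for STIM1 and -0.71 for ORAI2.

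Kinases and carriers that return NFAT to the cytoplasm (10 of 10 tested) and other calcineurin substrates (10 of 10 tested) also gave 0 calls with either inhibitor. HOMER3, a scaffold that competes with calcineurin for NFAT, fell with dexamethasone (-0.94) and LPS (-1.10). Mercuric chloride raised 4 and lowered 1 of the 10 genes for return of NFAT, where it called 21.8% of all genes higher and 20.1% lower. The kinase genes CSNK1A1, GSK3A and DYRK1A rose with it, by 0.98, 0.94 and 0.76, and the exportin gene XPO1 fell (-0.64). Dexamethasone raised 4 and lowered 1 of the 10 other substrate genes, where it called 4.99% of all genes higher and 3.58% lower. TFEB, the lysosomal regulator that calcineurin dephosphorylates, rose with dexamethasone (0.94) and LPS (1.10). The transcription factor gene MEF2D fell with dexamethasone (-0.98), LPS (-0.58) and prednisolone (-0.72), while MEF2C, another MEF2 gene, rose with dexamethasone (0.69). MEF2D was at 163, 173 and 57.8 CPM with dexamethasone, with replicate 3 far below the others. Without that library the dexamethasone calls were also made for MEF2D (-0.62) and HOMER3 (-1.07), and the one for TFEB was lost (0.65, adjusted p = 0.396 by edgeR).

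NFAT targets known mainly from T cells could hardly be read in these cells. Of 15 such genes 5 passed the filter, and IL2 and IL4 had 0 counts in all libraries. TNF, an inflammatory cytokine gene, averaged 86.2 ± 9.76 CPM with LPS against 7.04 ± 1.95 CPM in vehicle libraries (SD, n = 3 and 6), and its counts are uncertain because it lies in the major histocompatibility region. TNF was also called higher with dexamethasone (log2 1.90), benzoic acid (1.51), sodium lauryl sulfate (1.49) and mercuric chloride (1.10). PTGS2, the inducible cyclooxygenase gene, rose with mercuric chloride, to 41.6 ± 5.998 CPM against 2.16 ± 0.667 CPM in vehicle libraries (SD, n = 3 and 6), and with dexamethasone (1.54) and LPS (1.44). The TNF calls with dexamethasone and benzoic acid and the PTGS2 call with dexamethasone were also made without replicate 3 of those groups. Neither TNF nor PTGS2 was called with cyclosporine or tacrolimus. EGR3 and NR4A1 held most of their counts in the mercuric chloride libraries, and their levels are given as a description. EGR3 was at 30.5, 28.5 and 28.9 CPM with mercuric chloride and at most 0.408 CPM in vehicle libraries, and NR4A1 averaged 59.1 ± 10.4 CPM with mercuric chloride and 0.532 ± 0.413 CPM in vehicle libraries (SD, n = 3 and 6). At such levels a fall with either inhibitor was not detectable for these 2 genes.

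Genes most like each member in pattern were ranked by Pearson's correlation of mean log2 CPM over the 16 groups, among 10954 genes; these groups share control series and the mercuric chloride libraries, and the values are a description. DDX50 was most like PPP3CB (0.98), PTGDS most like PPP3R1 (0.95), ATP5I most like PPIA (0.95) and C12orf57 most like RCAN3 (0.95). ZNF585B was most like PPP3CA (0.92), TMUB2 most like NFATC1 (0.91), NCF4 most like NFATC2 (0.90), POLR2J most like FKBP1A (0.89), CCNA2 most like NFATC3 (0.89) and CXCR4 most like RCAN1 (0.83). Over the 15 groups without mercuric chloride, DDX50 stayed first for PPP3CB (0.98), while the first gene for RCAN1 was ADORA3 (0.88) and for RCAN3 MSRB2 (0.87).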

How the data were processed

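The members and all gene lists were chosen with earlier results of these data known. The deposited files hold raw counts per gene symbol for 48 libraries, each with a header that matches the library's description. Per the submitters' processing notes, Bowtie2, bedtools and the build hg19 (GRCh37) were used, with no versions; the sources used here do not give the annotation or strand setting. Rows sharing a symbol were summed (286 symbols, 1.36% of counts). Of 48 within-group pairs of libraries, 0 were identical, and the chi-square of their counts per degree of freedom was at least 2.13. Each library was taken as 1 replicate, although these values do not show that a group's libraries are separate cultures.

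Counts entered edgeR 4.0.16 (R 4.3.3) with TMM scaling, filterByExpr and 1 quasi-likelihood fit of 16 groups (32 residual degrees of freedom; common BCV, the biological coefficient of variation, 0.122). Both vehicle series served as controls for each treatment; the larger p was kept where signs agreed and set to 1 elsewhere, then adjusted by Benjamini-Hochberg over 15642 genes, with a threshold of 0.05. The log2 fold change is the mean of both contrasts, and its SE leaves out the difference between the series. Other comparisons were single contrasts. Levels are CPM after TMM scaling (mean ± SD). The script was tested on simulated data. Alternatives included RLE scaling, DESeq2 1.42.0, limma-voom (limma 3.58.1), no filter, other controls, a replicate block and leaving out libraries; fits without mercuric chloride, and for list genes without replicate 3 of dexamethasone or benzoic acid, were chosen after seeing the data. All 10 members are named; from each list, every called gene may be named for cyclosporine and tacrolimus and up to 4 with the largest change elsewhere. For likeness, genes needed a mean of at least 5 CPM.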

Additional observations from a re-analysis of the deposited data

How the results depend on the processing

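The count of members called depended mainly on the vehicle series. The share of all genes called follows each count. With vehicle series 2 alone it was 0 for cyclosporine (1.39%), 2 for benzoic acid (5.33%), 4 for tacrolimus (18.1%) and aciclovir (26.6%), 5 for prednisolone (25.2%), tofacitinib (18.9%) and mercuric chloride (52.6%), 6 for LPS (24.1%), ribavirin (16.9%), genistein (20.5%) and sodium lauryl sulfate (17.9%), and 8 for dexamethasone (30.2%). With vehicle series 1 alone it was 4 for cyclosporine (24.1%), 6 for mercuric chloride (57.4%), 1 for genistein (1.79%) and ribavirin (2.67%), and 0 for tacrolimus (0.237%). With the mean of both series as 1 contrast it was 1 for cyclosporine (PPP3CA, 10.4%) and tacrolimus (PPIA, 4.49%), 2 for aciclovir (13.8%), prednisolone (14.8%) and tofacitinib (13.4%), 3 for genistein (8.53%), ribavirin (6.90%) and LPS (18.7%), 5 for mercuric chloride (58.8%) and 6 for dexamethasone (28.1%). Dexamethasone called 1 member with no filter, in a fit of only the libraries compared and in a fit without the mercuric chloride libraries, which was chosen after seeing the data. Tofacitinib called 0 with untreated libraries in place of vehicle.

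FKBP1A changed sign with cyclosporine, to 0.045 (log2) with vehicle series 2 alone, 0.002 with untreated libraries and 0.023 without cyclosporine replicate 2 (-0.081 to 0.023 over the libraries left out), and with tacrolimus, to 0.03 with vehicle series 2 alone; it was called in none of these. Leaving out 1 library at a time, members called ranged from 1 to 2 for dexamethasone, 2 to 4 for mercuric chloride, 0 to 1 for tofacitinib, 3 to 4 for cyclosporine against tacrolimus and 5 to 6 between control series; the other treatments and vehicle against untreated kept their counts. The low values came without dexamethasone replicate 3 or any 1 vehicle library, without mercuric chloride replicate 3, without tofacitinib replicate 1, and, for the series (NFATC3, adjusted p = 0.0647 by edgeR), without vehicle series 1 replicate 3. A group left with 2 libraries is assumed to vary like the others.

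With the replicate number as a block, members called were 0 for cyclosporine and tacrolimus, 2 for dexamethasone and LPS, 4 for mercuric chloride, 1 for tofacitinib, 4 for cyclosporine against tacrolimus and 6 between series, and no call changed. Samples with the same number did not deviate together: the median correlation of their deviations was -0.00327 over 360 pairs, from -0.147 to 0.215, so the numbers were not read as a pairing. NFATC1 and RCAN3, at 45 counts in their lowest library, have the widest intervals, and counting error limits them most.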
